A study of Macaca mulatta with 24 samples.

Results

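The transcripts described here encode the pumps and exchangers that move calcium out of the neuronal cytosol, measured in the nucleus accumbens core (NAcc core) of 24 rhesus macaques. They are the 9 genes ATP2B1, ATP2B2, ATP2B3, ATP2B4, ATP2A2, ATP2A3, SLC8A1, SLC8A2 and SLC8A3, chosen by name among the 17208 gene rows of the deposited table, and all 9 were found. All 9 also lay among the 13637 genes that averaged 1 TPM or more over the animals (transcripts per 1000000, a share of an animal's transcripts corrected for gene length, a unit read from the values because the deposited table is named as normalized counts).

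Calcium that enters a neuron during activity is cleared by 3 families of proteins. The plasma membrane calcium ATPases (PMCA, genes ATP2B1 to ATP2B4) spend ATP to push calcium out of the cell and are switched on by calmodulin, the sarco/endoplasmic reticulum calcium ATPases (SERCA, genes ATP2A2 and ATP2A3) spend ATP to return it to the endoplasmic reticulum (ER), and the sodium-calcium exchangers (NCX, genes SLC8A1 to SLC8A3) use the sodium gradient to export it. The NAcc core is a part of the ventral striatum that takes part in reward-driven behavior, and most of its neurons are GABAergic striatal projection neurons.

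The animals were unrelated adult males of cohorts 4, 5, 7a and 7b. The 8 LD* animals, all labelled LD, are light and binge drinkers that the study merged. The 8 HD* animals are 4 heavy drinkers (category HD) and 4 very heavy drinkers (category VHD). Both groups drank 4% ethanol by choice in daily sessions of 22 h over a 12-month open-access period, after a period of schedule-induced drinking. The 8 control animals went through the same procedures with water in both spouts and received 10% maltose dextrin to match calories. Mean daily intake was 1.58 ± 0.53 g/kg in LD* animals, 2.92 ± 0.16 g/kg in HD animals and 3.37 ± 0.29 g/kg in VHD animals (SD, n = 8, 4 and 4). Cohort 4 held 2 LD* animals, cohort 5 held 3 controls, 2 HD and 2 VHD animals, cohort 7a held 2 controls, 3 LD*, 2 HD and 2 VHD animals, and in cohort 7b there were 3 of each of controls and LD*, so HD* animals and controls met only in cohorts 5 and 7a. Each animal gave 1 library from a small tissue punch, and each is a separate biological replicate.

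One library stood apart and is named with the results it touches. Control animal 6, of cohort 7b, had a median correlation of 0.878 with the other libraries over the genes tested, where the other 23 had medians from 0.930 to 0.978. It had the lowest level of all 24 animals in 11 of 11 striatal projection neuron markers, which summed to 774 TPM in this animal and to between 2732 and 12060 TPM in the others, and none of the 11 was at 0. In the other 23 animals the labelled tissue carried its defining markers, with medians of 2954 TPM for PPP1R1B, 249 TPM for DRD2 and 150 TPM for DRD1. The tissue is a mixture of cells, so fewer cells of a type and less RNA per cell cannot be told apart in any value given here. The number of reads behind a TPM value is unknown, and no counting error is given.

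Plasma membrane and ER pumps held the highest mean levels among the 9 transcripts, and the gene lengths behind the TPM values are not stated. Over the 24 animals ATP2B1 averaged 173 ± 93.0 TPM, ATP2A2 averaged 165 ± 58.4 TPM and ATP2B2 averaged 143 ± 57.4 TPM (SD, n = 24). ATP2B1 encodes PMCA1, a widely expressed pump, ATP2B2 encodes PMCA2, a fast pump typical of neurons, and ATP2A2 encodes SERCA2, the main ER pump of most cells. SLC8A2 (NCX2, a brain exchanger) followed with 68.6 ± 25.3 TPM, ATP2B4 (PMCA4, a widely expressed pump) with 61.6 ± 24.6 TPM, ATP2A3 (SERCA3) with 33.6 ± 20.5 TPM and ATP2B3 (PMCA3, a pump largely restricted to neurons) with 28.7 ± 11.1 TPM. SLC8A3 (NCX3, of brain and skeletal muscle) and SLC8A1 (NCX1, the exchanger of heart and brain) were lowest, with 17.0 ± 5.23 TPM and 15.4 ± 6.25 TPM.

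Neighbours in this order were compared within animals by a two-sided permutation test of the log2 ratio with 100000 sign flips. In this permutation test ATP2A2 exceeded ATP2B2 in 21 of 24 animals (p = 0.00015, adjusted p = 0.00040 over the 8 neighbour pairs) and ATP2B4 exceeded ATP2A3 in 19 of 24 (p = 0.00022, adjusted p = 0.00044). ATP2B2 exceeded SLC8A2 and ATP2B3 exceeded SLC8A3 in 24 of 24 animals (permutation p = 1e-05 for both, the smallest that 100000 sign flips give). The order of the other neighbours was not larger than their spread, although between 4 and 6 of the 8 pairs passed when each animal was left out in turn, with 6 without control animal 5. ATP2B1 was above ATP2A2 in 15 of 24 animals (adjusted p = 0.689), SLC8A2 above ATP2B4 in 15 (adjusted p = 0.0985), ATP2A3 above ATP2B3 in 16 (adjusted p = 1.00) and SLC8A3 above SLC8A1 in 14 (adjusted p = 0.0524). At the level of families, the summed PMCA transcripts averaged 406 ± 168 TPM, the SERCA transcripts 198 ± 74.6 TPM and the NCX transcripts 101 ± 34.4 TPM (SD, n = 24).

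The levels varied widely from animal to animal. ATP2A3 ranged from 1.92 TPM in control animal 6 to 74.2 TPM in control animal 1, a 38.6-fold range, and ATP2B1 from 27.0 to 374 TPM in the same animals, a 13.9-fold range. SLC8A3 was the steadiest of the 9, from 7.78 to 25.5 TPM. The SD of log2(TPM + 1) over the animals was 1.17 for ATP2A3, 0.94 for ATP2B1 and between 0.47 and 0.66 for the other 7, beside a median of 0.32 over all genes tested. ATP2A3 lay at the 99.5th percentile of that spread, ATP2B1 at the 98.5th and the other 7 between the 81.5th and the 94.0th.

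**Figure D1:**
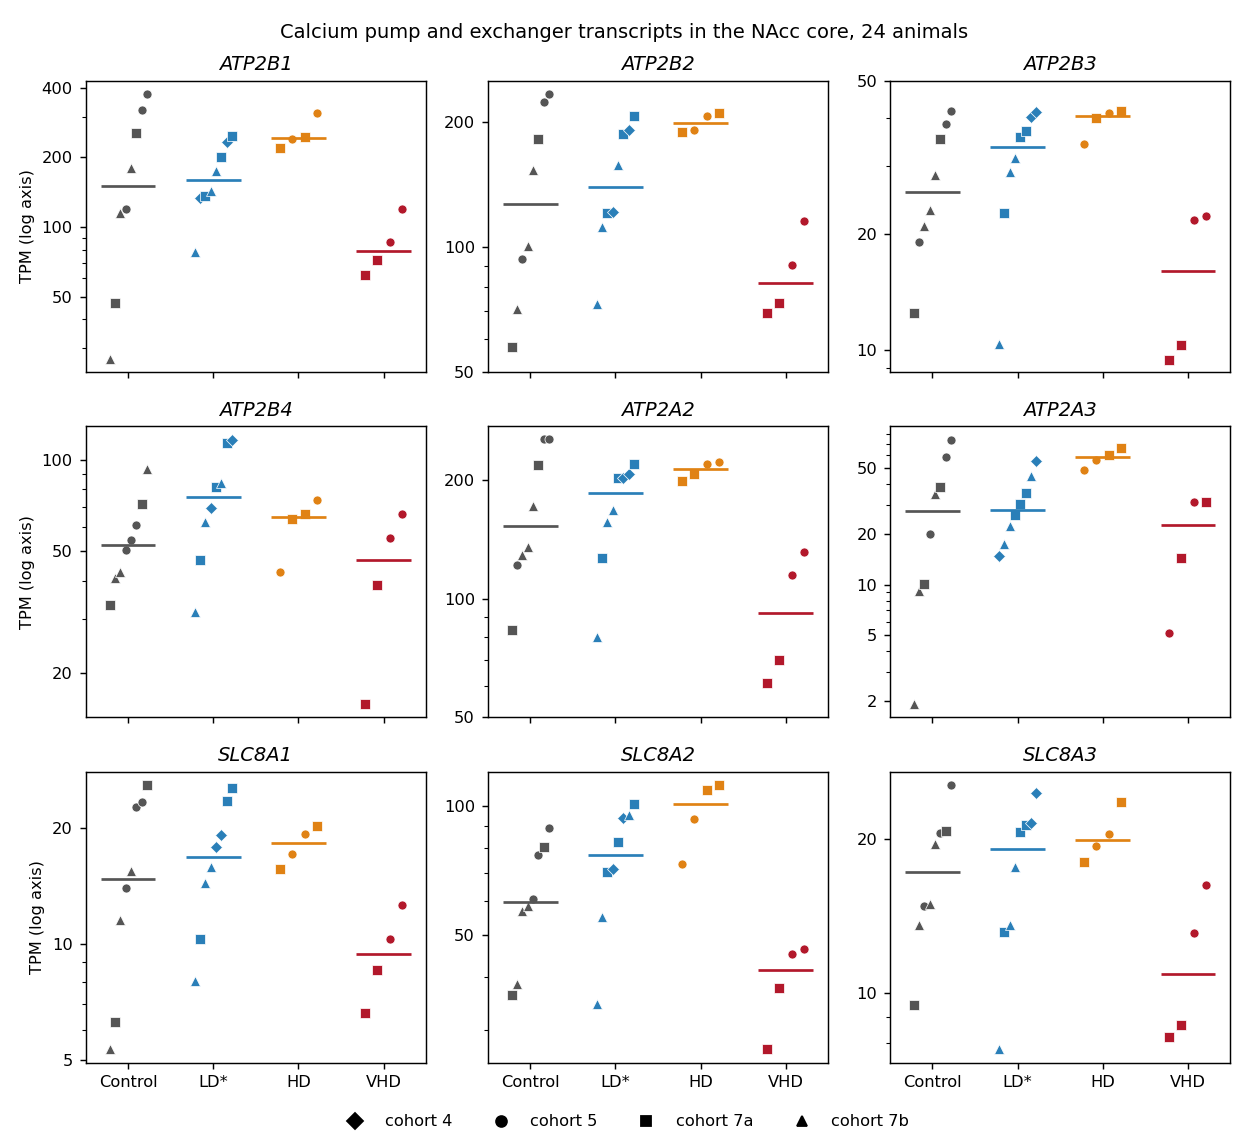
Level of each of the 9 transcripts in TPM on a log axis, by drinking category, with 1 point per animal, the shape giving the cohort and the bar the group's median. The 8 controls spread widely, and the 4 VHD animals lie below the 4 HD animals without overlap for every gene except ATP2B4.

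The first question of the design was whether heavy drinking animals as a group differed from controls. In HD* versus controls, 0 of 9 transcripts passed an adjusted p of 0.05 in limma, beside 0% of the 13637 genes tested (percent called), and 0 of 9 had an unadjusted p under 0.05, beside 775 genes (5.68%). ATP2B1 lay between 27.0 and 374 TPM in the controls (median 150.2) and between 62.0 and 310.1 TPM in HD* animals (median 169.9). ATP2B3 lay between 12.5 and 41.8 TPM in the controls (median 25.8) and between 9.46 and 41.9 TPM in HD* animals (median 28.3). The groups overlapped in both genes, and for ATP2B1 the controls reached both below and above the HD* animals. ATP2B1, ATP2B2 and ATP2B3 were among the synaptic genes that the study itself picked from these animals, so their count is not independent evidence of a direction.

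The intervals show which differences the group comparison leaves possible. Log2 fold changes (differences of mean log2(TPM + 1), which understate changes of low genes) ran from -0.21 for ATP2A2 (SE 0.28, 95% CI -0.80 to 0.37, adjusted p = 0.78) to 0.59 for ATP2A3 (SE 0.55, 95% CI -0.54 to 1.72, adjusted p = 0.72) in HD* versus controls. With each animal left out ATP2A2 ranged from -0.34 without control animal 8 to -0.047 without HD* animal 8, and ATP2A3 from 0.18 without control animal 6 to 0.93 without HD* animal 4. The PMCA transcripts stood at 0.11 for ATP2B1, 0.07 for ATP2B2, -0.09 for ATP2B3 and -0.14 for ATP2B4. The median of the 9 was -0.07, beside -0.12 over all genes tested, and TMM rescaling, which scales each library by a trimmed mean of its log ratios to a reference, moved that all-gene median to 0.00. With this rescaling SLC8A1, the middle value of the 9 on both scales, turned from -0.07 to 0.05, so the median of the 9 turned too. ATP2B3 turned from -0.09 to 0.04. Without control animal 6, the direction of ATP2B1 turned to -0.21, of ATP2B2 to -0.04 and of SLC8A2 to -0.06. With cohort as a covariate ATP2B1 turned to -0.21, ATP2B2 to -0.12 and SLC8A2 to -0.14, and ATP2A3 turned to -0.038 in a fit of cohorts 5 and 7a alone.

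Comparisons with LD* animals gave no calls. In limma, 0 of 9 transcripts passed in LD* versus controls (0% of all genes, 387 or 2.84% at an unadjusted p under 0.05) and 0 of 9 in HD* versus LD* (0% of all genes, 147 or 1.08% unadjusted), and 0 of 9 had an unadjusted p under 0.05 in either comparison. ATP2B4 had the lowest unadjusted p of the 9 in both comparisons. It lay between 31.7 and 117 TPM in LD* animals (median 75.5), between 33.2 and 93.7 TPM in controls (median 52.7) and between 15.8 and 73.6 TPM in HD* animals (median 59.6). Its log2 fold change was 0.39 in LD* versus controls (SE 0.28, limma adjusted p = 1.00) and -0.52 in HD* versus LD* (SE 0.28, limma adjusted p = 0.94), and these comparisons share the LD* animals. Without HD* animal 8 the latter was -0.30.

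The cohorts taken singly were too small for any difference to pass. Exact two-sided permutation tests within cohorts could not give an adjusted p below 0.071 over the 45 differences tested, so that none passed says nothing about their size. The lowest unadjusted exact p was 0.26, and the smallest p that the animals allow was 0.0286 in cohort 5 and in HD* versus LD* of cohort 7a, 0.0667 in HD* versus controls of cohort 7a and 0.10 in LD* versus controls of cohorts 7a and 7b. HD* minus control differences lay between -0.73 (ATP2A3) and 0.08 (ATP2B4) in cohort 5, and between -0.27 (ATP2B4) and 0.86 (ATP2A3) in cohort 7a. LD* minus control differences lay between 0.33 and 0.77 in cohort 7a and between -0.34 and 1.41 in cohort 7b. HD* minus LD* differences lay between -0.89 and 0.27 in cohort 7a. The difference between cohorts 5 and 7a in the HD* effect, fitted in limma as an interaction, passed for 0 of 9 transcripts (0% of all genes, 294 or 2.16% at an unadjusted p under 0.05). Mean PMCA levels were 479 ± 182 TPM in cohort 5 (n = 7), 395 ± 188 TPM in cohort 7a (n = 9) and 314 ± 109 TPM in cohort 7b (SD, n = 6), and these means were not tested because the cohorts hold different groups.

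Within the HD* group the levels fell into separate ranges by category. All 9 transcripts were lower in VHD than in HD animals on average, as were 65.2% of all genes. Of the 9, 8 passed an adjusted p of 0.05 in limma, beside 14.6% of all genes in either direction, 11.4% lower and 3.23% higher. ATP2B1 stood at 120, 86.2, 71.9 and 62.0 TPM in the 4 VHD animals and at 310.1, 240.8, 245 and 220.0 TPM in the 4 HD animals. Every VHD animal lay below every HD animal for 8 of 9 transcripts, which held for 17.9% of all genes. The median log2 fold change of the 9 was -1.23, beside -0.17 over all genes tested, a value that TMM rescaling moved to -0.02.

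Of the PMCA transcripts 3 of 4 fell. ATP2B1 fell by 1.60 on the log2 scale (SE 0.19, 95% CI -2.02 to -1.18, adjusted p = 0.0036), 3.03-fold. ATP2B2 fell by 1.21 (SE 0.16, adjusted p = 0.0036), with 115, 90.8, 69.2 and 73.3 TPM in VHD animals and 207, 191, 211 and 189.7 TPM in HD animals. The HD animals were within 1.11-fold of each other for this gene, and the controls spread over 4.08-fold. ATP2B3 fell by 1.35 (SE 0.27, adjusted p = 0.0097), from 34.2 to 41.9 TPM in HD animals to 21.8, 22.3, 9.46 and 10.3 TPM in VHD animals, where the 2 lowest were the cohort 7a animals.

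ATP2B4 was the exception. It stood at 55.3, 66.4, 38.7 and 15.8 TPM in VHD animals and at 42.9, 73.6, 64.0 and 66.3 TPM in HD animals, and the log2 difference of -0.63 (SE 0.36, 95% CI -1.40 to 0.15) did not pass (adjusted p = 0.24). It was -0.21 without HD* animal 8 and -0.88 without HD* animal 4. In cohort 5 its VHD mean of 60.8 TPM was level with its HD mean of 58.2 TPM, and in cohort 7a the means were 27.2 and 65.2 TPM. For the other 8 genes every VHD animal lay below every HD animal in both cohorts. This follows from the separation of the 4 VHD from the 4 HD animals, seen in 17.9% of all genes, and adds no evidence of its own. The difference was wider in cohort 7a than in cohort 5 for 7 of these 8, which was not tested, with -0.75 and -1.95 for ATP2B3 in cohorts 5 and 7a and -0.84 and -1.76 for SLC8A2, and ATP2A3 went the other way with -1.92 and -1.51.

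Both ER pumps and the 3 exchangers were lower as well. ATP2A2 fell by 1.23 (SE 0.22, adjusted p = 0.0070), from values between 199 and 222 TPM in HD animals to 114, 131, 69.9 and 61.3 TPM in VHD animals. ATP2A3 fell by 1.72 (SE 0.43, adjusted p = 0.023), or by 1.20 without HD* animal 4 (adjusted p = 0.0052), from values between 48.8 and 65.8 TPM in HD animals to 31.2, 5.14, 14.5 and 31.5 TPM in VHD animals. Its lowest value, 5.14 TPM, belonged to VHD animal 4 of the HD* group, which was the highest VHD animal in ATP2B3, ATP2B4, ATP2A2 and SLC8A3. Among the exchangers SLC8A2 fell by 1.30 (SE 0.20, adjusted p = 0.0044), SLC8A1 by 0.89 (SE 0.21, adjusted p = 0.019) and SLC8A3 by 0.81 (SE 0.22, adjusted p = 0.033). SLC8A1 lay between 15.7 and 20.3 TPM in HD and between 6.66 and 12.6 TPM in VHD animals, and SLC8A3 between 18.0 and 23.6 TPM and between 8.22 and 16.3 TPM. SLC8A2, the most abundant exchanger, stood at 46.5, 45.3, 37.7 and 27.1 TPM in VHD animals and at 73.5, 93.2, 109 and 112 TPM in HD animals.

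These calls rest on 4 against 4 animals. The TMM scaling factors were 0.94, 1.15, 0.84 and 0.70 in the VHD animals (HD* animals 1, 4, 6 and 8) and between 1.00 and 1.02 in the HD animals. HD* animal 8 also had the lowest median correlation with the other libraries after control animal 6, 0.930. In a model chosen after seeing the data, with the 4 categories and a spread taken from all 24 animals, 0 genes of 13637 passed (4608 at an unadjusted p under 0.05) and the 9 transcripts had adjusted p values from 0.0555 to 0.25, with the same log2 fold changes. When each of the 8 animals was left out in turn, ATP2B1, ATP2B2, ATP2B3, ATP2A2 and SLC8A2 passed in 8 of 8 fits, SLC8A1 in 4, ATP2A3 in 3, SLC8A3 in 2 and ATP2B4 in 0, and the count of all genes called lay between 476 (without HD* animal 6) and 4651 (without HD* animal 4). With TMM rescaling the split of calls over all genes changed from 441 higher and 1556 lower to 1065 higher and 1583 lower, the 9 log2 fold changes ran from -1.54 for ATP2A3 to -0.45 for ATP2B4, and ATP2A3 lost its call (adjusted p = 0.066).

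**Figure D2:**
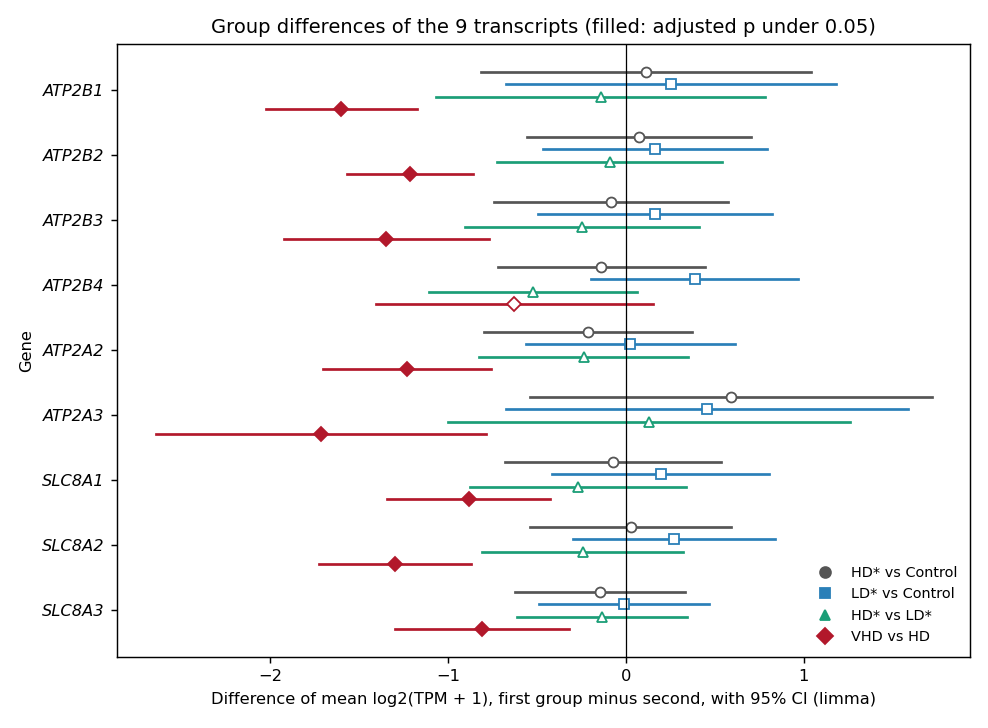
Differences of mean log2(TPM + 1) for each transcript in 4 comparisons, first group minus second, with limma's 95% confidence intervals as lines and filled symbols where the adjusted p was under 0.05. The intervals of the 3 comparisons between groups of 8 all cross 0, and those of VHD versus HD lie below 0 for every gene except ATP2B4.

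Set against the controls, neither category differed by a call. In the same 4-category model, chosen after seeing the data, 9 of 9 transcripts had a positive log2 fold change in HD versus controls (median 0.59, beside -0.03 over all genes, of which 45.4% were positive) and 9 of 9 a negative one in VHD versus controls (median -0.55, beside -0.21 over all genes, of which 77.9% were negative). TMM rescaling moved the all-gene median in VHD versus controls to -0.02. When each animal was left out in turn, ATP2A3 in VHD versus controls ranged from -0.68 to 0.24 and so changed direction. In neither comparison did any of the 9 pass (0% of all genes called in both). Unadjusted p values under 0.05 numbered 3 of 9 in HD versus controls, beside 7.77% of all genes, and 4 of 9 in VHD versus controls, beside 26.1% of all genes. SLC8A2 had the lowest p of the former (0.68, SE 0.25, limma adjusted p = 0.58) and ATP2A2 of the latter (-0.83, SE 0.28, limma adjusted p = 0.16), and both comparisons use the same 8 controls. ATP2A2 passed in VHD versus controls without HD* animal 4 (adjusted p = 0.024) and without control animal 8 (adjusted p = 0.047), and ATP2B3 passed without HD* animal 4 (adjusted p = 0.047). In limma 3836 of all 13637 genes passed without HD* animal 4 and 1231 without control animal 8. Marker genes also had shared signs in these comparisons, without calls, and their part was not tested. In HD versus controls 11 of 11 striatal projection neuron markers (median 1.00) and 1 of 77 ribosomal protein genes were positive. In VHD versus controls 3 of 11 striatal markers, 0 of 8 neuron markers and 75 of 77 ribosomal protein genes were positive. The controls include control animal 6, lowest in 11 of 11 striatal markers, and these marker counts were not refitted without it. For the 9 transcripts no direction turned without it. ATP2B1 then went from 0.91 to 0.59 in HD and from -0.69 to -1.01 in VHD versus controls, and ATP2A3 from 1.45 to 1.04 and from -0.27 to -0.68.

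Marker genes of cell types and ribosomal protein genes differed between VHD and HD animals together with the pumps, and their part in the result was not tested. A marker score is the mean of centred log2(TPM + 1) over a marker list. The striatal projection neuron score lay between 0.59 and 0.82 in HD and between -0.75 and 0.01 in VHD animals, and 10 of 11 of its markers were called lower in limma, with summed levels of 9324 to 10917 TPM and 3538 to 6292 TPM. The ribosomal protein score lay between -0.36 and -0.19 in HD and between 0.09 and 0.70 in VHD animals, and 64 of 77 tested ribosomal protein genes were called higher. Neither score overlapped between the categories, and nor did the endothelial score (0.03 to 0.27 in HD and -0.38 to -0.10 in VHD animals). Of the neuron markers 4 of 8 were called lower (summed levels of 3052 to 3649 TPM in HD and 1415 to 3002 TPM in VHD animals), of the microglia markers 4 of 7 were called higher (284 to 377 TPM and 378 to 665 TPM), and of the astrocyte markers 1 of 7 was called higher (1802 to 3291 TPM and 3939 to 6613 TPM). Of the oligodendrocyte markers 1 of 8 was called higher, and of the oligodendrocyte precursor and endothelial markers 0 of 5 and 0 of 5 were called. Over all genes 11.4% were called lower and 3.23% higher.

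The other genes of calcium handling, taken from 5 lists, held calls in both directions. Called lower in VHD versus HD were 2 of 4 other calcium pumps and exchangers tested, 3 of 6 partners and regulators of the pumps, 6 of 13 genes of ER calcium release, entry and binding, 2 of 4 genes of mitochondrial calcium uptake and 2 of 10 cytosolic calcium-binding proteins, and 1 ER gene and 1 mitochondrial gene were called higher. Over all genes 11.4% were called lower and 3.23% higher, and of the 5 lists the cytosolic one lay nearest to the share called lower. The partners called lower, named here after their values were seen, were NPTN and BSG, which encode the neuroplastin and basigin subunits that PMCAs need, and the calmodulin gene CALM3. NPTN fell by 1.00 (SE 0.18, adjusted p = 0.0078), BSG by 0.69 (SE 0.14, adjusted p = 0.012) and CALM3 by 0.56 (SE 0.15, adjusted p = 0.027).

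Among the genes selected by level or by p in HD* versus controls, SLC24A3 (a potassium-dependent sodium-calcium exchanger) fell by 0.76 in VHD versus HD (adjusted p = 0.049), CALR (calreticulin, a calcium-binding ER chaperone) by 0.65 (adjusted p = 0.020) and HPCA (hippocalcin, a neuronal calcium sensor) by 1.03 (adjusted p = 0.025). SMDT1, a regulator of the mitochondrial calcium uniporter, went up from 154 to 275 TPM (log2 fold change 0.81, SE 0.16, adjusted p = 0.0091). ATP2C1 (the Golgi calcium pump, -0.61, adjusted p = 0.11), ITPR2 (an ER calcium release channel, 0.13, adjusted p = 0.78) and CALB2 (calretinin, -0.01, adjusted p = 0.99) did not pass. In HD* versus controls 0 genes of the 5 lists passed in limma, and ITPR2 had the smallest p, with 6.46 TPM in HD* animals and 9.01 TPM in controls (limma adjusted p = 0.71). ATP2A1 (SERCA1, the pump of fast skeletal muscle) and PLN (phospholamban, a SERCA inhibitor) had means below 1 TPM and were not tested.

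The transcripts moved together across animals in graded fashion. Pearson correlations of log2(TPM + 1) over the 24 animals were positive for 36 of 36 pairs, with a median of 0.79 and a range from 0.08 to 0.96, and 34 pairs had an adjusted permutation p under 0.05. Over all pairs of the 13637 genes tested the median r was 0.18 and 64.3% were positive, and the share of them that would pass was not tested. The closest pairs lay both between and within families. ATP2B3 and ATP2A2 had an r of 0.96 and a Spearman rho of 0.87, and ATP2B1 and ATP2B2 an r of 0.95 and a rho of 0.96, each with a permutation p of 1e-05, the smallest that 100000 permutations give. These values were 0.94 and 0.98 without the 2 animals farthest from the median of the first gene, 0.97 and 0.98 without control animal 6, and at least 0.86 within each of cohorts 5, 7a and 7b. ATP2B4 and ATP2A3, at the other end, had an r of 0.08 and a rho of 0.07 (p = 0.70 and 0.76). Centring the values within cohort and group left the median at 0.78. Within cohort 5 all 8 pairs with ATP2B4 were negative, from -0.51 to -0.08, in cohort 7a they ran from 0.41 to 0.91 and in cohort 7b from 0.13 to 0.80. Over all 36 pairs the median was 0.86 in cohort 5, 0.92 in cohort 7a and 0.55 in cohort 7b, where 33 were positive.

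The members differed in their correlations with cell type markers, and differences between correlations were not tested. ATP2A3 and ATP2B1 tracked the striatal projection neuron score, with r of 0.92 and 0.91 and rho of 0.92 for both (permutation p = 1e-05, adjusted p = 6e-05 for r and 7e-05 for rho over the 72 relations between members and scores), and 1.03% and 1.13% of all genes tested had a higher r. Without control animal 6 these values were 0.89 and 0.91, without the 2 animals farthest from the median score 0.88 and 0.89, and within cohorts 5, 7a and 7b at least 0.89. ATP2B2 had an r of 0.81 with the same score but the highest rho of the 9, 0.95, and an r of 0.94 without control animal 6. ATP2B3 had a higher r with the general neuron score (r = 0.86, rho = 0.73, adjusted p = 6e-05 and 0.00053), where 3.10% of genes had a higher r, with values of 0.46, 0.97 and 0.88 within cohorts 5, 7a and 7b. Its r with the striatal score was 0.45, or 0.72 without control animal 6, and its rho was 0.70, close to that with the neuron score. Within cohorts 5, 7a and 7b its r with the striatal score was 0.88, 0.90 and -0.17, so the order turned in cohort 5. ATP2A3 had no detectable relation to the general neuron score (r = 0.06, rho = 0.15, adjusted p = 0.82 and 0.52), with -0.07 in cohort 5, 0.67 in cohort 7a and -0.31 in cohort 7b, and neither had ATP2B4 to the striatal score (r = 0.26, rho = 0.18, adjusted p = 0.26 and 0.45), where the cohorts differed in sign, with -0.51 in cohort 5, 0.73 in cohort 7a and 0.19 in cohort 7b. The microglia score ran against ATP2A3 (r = -0.79, rho = -0.84) and ATP2B2 (r = -0.78, rho = -0.85). With the endothelial score r ran from 0.23 for ATP2B4 to 0.70 for ATP2A2, where 0.87% of genes had a higher r. That of ATP2A2 was 0.38 after TMM rescaling. With the astrocyte score r ran from -0.74 for ATP2A3, where 0.62% of genes had a lower r, to 0.02 for ATP2B4.

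The ribosomal protein score had a negative r with all 9 transcripts over the 24 animals, but not in every cohort. It was 0.22 for ATP2B4 in cohort 5, and 0.12 for ATP2A3 and -0.01 for ATP2B1 in cohort 7b, and for ATP2A3 it was -0.18 after TMM rescaling. ATP2B3 had an r of -0.98 and a rho of -0.93 with the ribosomal protein score (permutation p = 1e-05, adjusted p = 6e-05), and 0.0074% of the 13560 other genes tested had a lower r. ATP2A2 followed with -0.97 (rho -0.90) and SLC8A3 with -0.96, where 0.33% and 0.66% of genes were lower, and the other 6 transcripts lay between -0.85 and -0.43, beside a median of -0.39 over all genes. For ATP2B3 the value was -0.97 without the 2 animals farthest from the median score, -0.98 without control animal 6, -0.95, -0.99 and -0.99 within cohorts 5, 7a and 7b, and -0.89 after TMM rescaling. On that scale the r of ATP2A3 and of ATP2B1 with the striatal score was larger in size, at 0.93 and 0.91. TPM values are shares of a fixed total, and the summed ribosomal protein genes took between 71205 and 168039 TPM of that total.

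**Figure D3:**
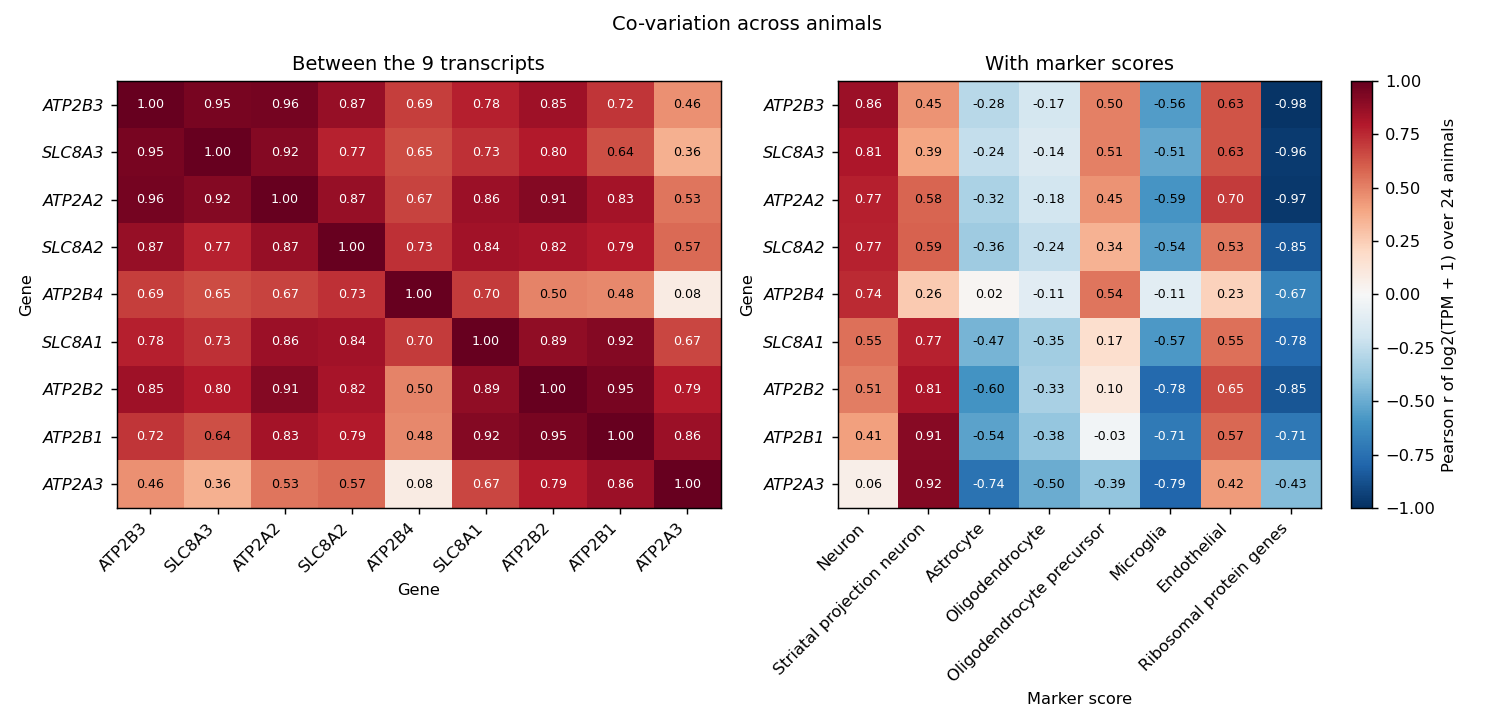
Pearson r of log2(TPM + 1) over 24 animals, between the 9 transcripts in the left panel and between each transcript and 8 marker scores in the right panel, with the value printed in each cell. ATP2B3, SLC8A3 and ATP2A2 have the most negative r with ribosomal protein genes (-0.96 to -0.98), and ATP2B1 and ATP2A3 the highest r with striatal projection neuron markers (0.91 and 0.92).

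**Figure D4:**
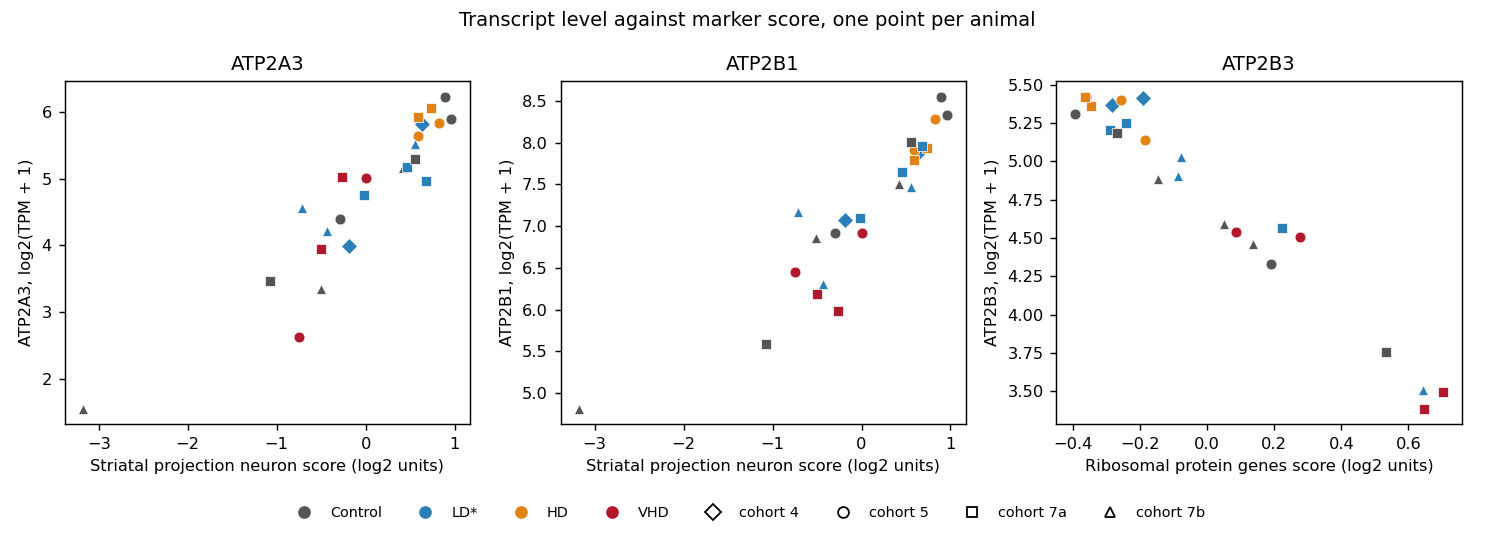
Log2(TPM + 1) of ATP2A3, ATP2B1 and ATP2B3 against a marker score, 1 point per animal, coloured by drinking category and shaped by cohort. Control animal 6 is the point at the far left of the first 2 panels, with a striatal projection neuron score of -3.18, and HD and VHD animals overlap on neither axis in any of the 3 panels.

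The genes whose pattern over the 24 animals was most like each member, among the 9197 genes averaging 10 TPM or more, differed between members. For ATP2B1 they were FAM49B (r = 0.99), RBFOX1 (0.99) and RYR2 (0.98), the last an ER calcium release channel, and for ATP2A3 they were LAD1 (0.97), the dopamine receptor gene DRD2 (0.97) and FKBP1A (0.97). ATP2B2 was close to FAM171A1 (0.98) and LRRN1 (0.98), ATP2B3 to ACVR1B (0.98), ATP6V0A1 (0.98) and CLSTN1 (0.98), and ATP2A2 to CLCN4, ATP9A and POLR3A (0.99, 0.99 and 0.98). SLC8A1 was closest to the sodium channel gene SCN2A (0.97), REPS2 (0.96) and FAM49A (0.96), SLC8A2 to FAM131B (0.94), NELL2 (0.93) and WIPI2 (0.93), and SLC8A3 to the synaptic vesicle gene SV2A (0.97), PEX5 (0.97) and DHDDS (0.96). ATP2B4 had the lowest best match, UNC5D (0.93), with VSTM5 (0.92) and NECAP1 (0.92) next.

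Shares of a transcript within its family do not depend on the scaling of a library. This comparison was chosen after seeing the data and used exact two-sided permutation tests. ATP2B1 made up 45.6 ± 4.42% of PMCA transcripts in HD and 36.8 ± 2.90% in VHD animals (SD, n = 4 each), a difference of -8.79 percentage points (exact p = 0.029, the smallest the design allows, adjusted p = 0.23 over the 8 shares). With 4 against 4 animals a single share cannot pass after adjustment over 8, so a missed threshold says little here. ATP2B4 made up 11.2 ± 2.80% and 18.2 ± 6.39% (exact p = 0.11, adjusted p = 0.23), and the share of ATP2B2 was 36.0 ± 1.34% and 38.3 ± 4.93% (exact p = 0.60). SLC8A2 took 71.2 ± 4.03% of NCX transcripts in HD and 65.1 ± 2.78% in VHD animals (exact p = 0.057, adjusted p = 0.23), and ATP2A3 took 21.4 ± 2.78% and 19.1 ± 12.4% of SERCA transcripts (exact p = 0.69). No share passed in HD* versus controls, LD* versus controls or HD* versus LD* (lowest adjusted p = 0.67). In control animal 6 ATP2B1 made up 16.1% of PMCA transcripts, beside at least 31.4% in the other 7 controls.

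**Figure D5:**
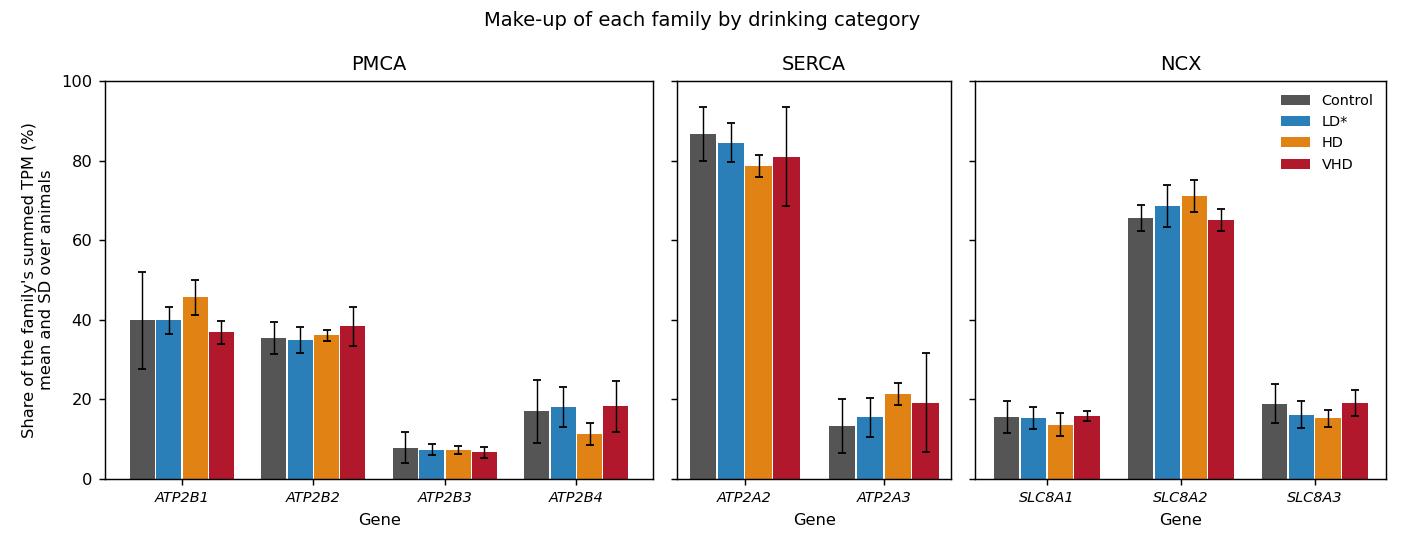
Share of each transcript in the summed TPM of its family, in percent, as mean and SD over 8 controls, 8 LD*, 4 HD and 4 VHD animals. ATP2B1 and ATP2B2 make up most of the PMCA transcripts, ATP2A2 of the SERCA transcripts and SLC8A2 of the NCX transcripts in each category, and ATP2B1 has its highest mean share, 45.6%, in HD animals.

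Intake was compared with the transcripts within LD* and within HD* animals only, because the intakes of these groups do not overlap. In HD* animals 9 of 9 Pearson correlations were negative (-0.60 for ATP2B1 to -0.14 for ATP2B4, n = 8) and in LD* animals 8 of 9 (-0.59 for SLC8A3 to 0.10 for ATP2A3, n = 8). The share of all genes with a negative r was not computed, and the 9 transcripts vary together. These counts of signs are therefore not a result particular to the 9. By exact permutation over all pairings none passed after adjustment over the 18 relations (lowest adjusted p = 0.37 for Pearson's r and 0.16 for Spearman's rho). The lowest unadjusted values were for rank order, with rho of -0.83 for SLC8A3 and -0.81 for ATP2B3 in LD* animals (exact p = 0.016 and 0.018) and -0.77 for ATP2B1 in HD* animals (exact p = 0.031). Pearson's r of these 3 was -0.59, -0.58 and -0.60. Without the 2 animals farthest from the median intake it was -0.57, -0.54 and -0.77, and the r of ATP2A3 in LD* animals turned from 0.10 to -0.86. In HD* animals intake and category are linked, since 3 of 4 VHD animals drank more than every HD animal, and the remaining VHD animal drank as much as the highest HD animal (3.09 g/kg).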

How the data were processed

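RNA from the NAcc core of 24 animals was sequenced after poly(A) selection. Per the labels and the study's methods, the authors aligned reads with STAR 2.5.2b to the MacaM genome and counted unique reads per gene with HTSeq 0.6.1p1. The deposited table is named as normalized counts, and its values, made by the authors, were read here as TPM. Each animal sums to between 999998 and 1000000, and within an animal 93.2% to 95.4% of the values above 0 and below 1 are distinct, where whole reads divided by a library total alone would repeat. If the divisor is not the gene length, the order of levels between genes would change. The gene lengths used are not given in the sources used here, and the sources differ on whether reads were paired and stranded, so reads of overlapping or antisense genes may not be separable. TPM keeps no depth, so no count test was run.

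Here, log2(TPM + 1) of the 13637 genes averaging 1 TPM or more was fitted with limma 3.58.1 (R 4.3.3), with trend, and p-values were Benjamini-Hochberg adjusted over all of them, with a call at an adjusted p under 0.05. Groups of 8 shared 1 fit of all 24 animals, VHD and HD animals were fitted on their own, and the interaction with cohort used cohorts 5 and 7a. Correlations, shares and within-cohort differences were tested by permutation (100000 draws, or exact) in Python 3.11.15 with scipy 1.17.1. P-values measure the spread between separate animals.

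Alternatives were a pseudocount of 8, no filter or a filter of 10 TPM, TMM rescaling (trims of 30% and 5%), cohort as a covariate, fewer groups in the fit and each animal left out. The members and gene lists were chosen with earlier results of these data known. The genes named are the 9 members, from each calcium list the gene with the highest mean and the gene with the smallest p in HD* versus controls, and the 3 genes most like each member, and 2 genes so chosen are not reported here. Symbols of the lists that matched no row were left out of the counts tested. The model with 4 categories, HD and VHD each against controls, and the family shares were added after seeing the data. On simulated data with each gene's own spread, limma recovered 56 of 67 genes changed by 1 on the log2 scale in HD* versus controls and 29 of 67 in VHD versus HD. The changed genes were picked at random among those tested, and each gene was drawn independently. The 9 transcripts had SDs of 0.47 to 1.17, beside a median of 0.32 over all genes, and varied together. These counts therefore do not say how often a change in the 9 would be found.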

Additional observations from a re-analysis of the deposited data

Results flagged for a closer look

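None of the 45 groups of member values held an animal apart from its group by Dixon's test, which flags about 1 in 20 groups by chance. Of all 85 groups checked, 6 did, all in other calcium genes. CALB2 was highest in control animal 6, at 309 TPM (others 27.9 to 86.6 TPM), in LD* animal 2 at 92.2 TPM (others 26.9 to 46.7 TPM) and in HD* animal 4 at 80.7 TPM (others 24.8 to 47.7 TPM). ITPR2 was highest in HD* animal 4 as well, at 11.8 TPM (others 3.43 to 6.62 TPM). SMDT1 was highest in control animal 8, at 304 TPM (others 143 to 216 TPM), and in LD* animal 5, at 339 TPM (others 151 to 238 TPM).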

How the results depend on the processing

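In HD* versus controls, LD* versus controls and HD* versus LD*, 0 transcripts were called by limma under every setting run, so these comparisons have directions without calls. The call of 8 transcripts and 1997 genes in VHD versus HD became 0 transcripts and 0 genes with 4 categories over all 24 animals, where the spread comes from all animals. With no filter, which tests more genes, ATP2A3 (adjusted p = 0.079) and SLC8A3 (adjusted p = 0.066) lost their calls in limma and 1408 genes passed. With each animal left out, 5 to 8 transcripts and 476 to 4651 genes were called in VHD versus HD, 0 to 2 transcripts and 0 to 3836 genes in VHD versus controls, 0 to 14 genes in the interaction of HD* and cohort, and 0 to 1 correlations with intake. In VHD versus HD, 5 transcripts were called without HD* animal 2, 3, 5 or 6. In the interaction, 1 gene passed without control animal 2 and 14 without control animal 7.

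Directions turned in uncalled log2 fold changes, and the cause was not tested. In HD* versus controls they turned to 0.041 for ATP2B3 and 0.050 for SLC8A1 with TMM rescaling, to -0.21 for ATP2B1, -0.12 for ATP2B2 and -0.14 for SLC8A2 with cohort as a covariate, and to -0.23 for ATP2B1, -0.043 for ATP2B2, -0.038 for ATP2A3 and -0.093 for SLC8A2 in cohorts 5 and 7a alone with cohort as a covariate. In LD* versus controls SLC8A3 turned to 0.036 with TMM rescaling, and in HD* versus LD* ATP2A3 turned to -0.49 with cohort as a covariate.

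With each animal left out, HD* versus controls ranged from -0.21 to 0.32 for ATP2B1, from -0.084 to 0.20 for ATP2B2, from -0.23 to 0.096 for ATP2B3, from -0.23 to 0.086 for ATP2B4, from -0.25 to 0.050 for SLC8A1 and from -0.098 to 0.19 for SLC8A2. LD* versus controls ranged from -0.069 to 0.47 for ATP2B1, from -0.11 to 0.17 for ATP2A2 and from -0.12 to 0.14 for SLC8A3. HD* versus LD* ranged from -0.30 to 0.030 for ATP2B1, from -0.22 to 0.038 for ATP2B2 and from -0.018 to 0.47 for ATP2A3. VHD versus controls ranged from -0.68 to 0.24 for ATP2A3. The interaction ranged from -0.49 to 1.93 for ATP2B1, from -0.35 to 1.29 for ATP2B2, from -0.65 to 0.78 for ATP2B3, from -0.89 to 0.19 for ATP2B4, from -0.64 to 0.73 for ATP2A2, from -0.67 to 1.21 for SLC8A1, from -0.15 to 0.97 for SLC8A2 and from -0.40 to 0.65 for SLC8A3.

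No paired analysis was possible because each animal gave 1 library and belongs to 1 group. The labels give the animals no replicate numbers. TPM keeps no depth, so the counting error of the lowest transcripts, SLC8A1 and SLC8A3, is unknown.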
